A study of Mus musculus with 8 samples.

Results

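Arachidonic acid is turned into signalling lipids along a lipoxygenase route and a cyclooxygenase route, and 8 genes of these routes were examined for H3K4me3, the trimethyl mark on lysine 4 of histone H3, in mouse lung tumor cells with and without GPX4. The genes were *Alox5*, *Alox5ap*, *Alox12* and *Alox15*, with *Ltc4s*, on the lipoxygenase side and *Ptgs1*, *Ptgs2* and *Ptges* on the prostaglandin side. Every peak that the deposited table listed under 1 of these gene names was taken, whatever its distance from the start site and whatever its values. This gave 13 of the 35486 listed peaks, under 7 of the 8 genes, out of 20871 genes with a listed peak. *Ptges* had no listed peak.

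H3K4me3 was profiled by an assay that the methods name CUT&Tag. They describe an antibody that directs a nuclease (pAG-MNase) to cut out the DNA next to the mark. KL and KLG4m/m tumor cells shared the same Cre-driven tumor background, which included Lkb1fl/fl, from which Cre removes LKB1, and KLG4m/m tumor cells carried Gpx4m/m in addition. In the Gpx4m/m allele Cre also switches on a tamoxifen-dependent Dre recombinase that removes *Gpx4*, so GPX4 is lost only in Cre-exposed cells and only after tamoxifen. Both groups were infected intranasally with Ad-Cre at 8 to 10 weeks of age and both received tamoxifen (80 mg/kg, over 2 weeks, from 5 weeks after infection), and tumors were taken 10 weeks after Ad-Cre, following 3 weeks of rest. Ad-Cre carries no restriction to a lung cell type in the sources used here. CD45-CD31-EpCAM+ cells were sorted, and the labels give 2 KL libraries (replicates 1 and 2) and 2 KLG4m/m libraries (replicates 3 and 4), as does the legend to these data with 2 mice per group, while the protocol gives 3 as the total number of mice. The p-values therefore measure only the spread between these libraries.

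The libraries held 3244495 to 3463731 reads in listed peaks. Pairs within a group differed by little more than counting noise (chi-square per degree of freedom 1.13 for KL and 1.23 for KLG4m/m), whereas pairs across the groups reached 2.37 to 2.80. All listed peaks but 1 were 400 bp wide, so levels of different peaks are per equal length, and levels below are CPM, that is counts divided by the library's TMM-scaled reads in listed peaks. The only listed *Gpx4* peak lay over its start site with 242 and 236 reads in KL against 304 and 301 in KLG4m/m (log2 fold change 0.40, SE 0.0941, edgeR adjusted p = 0.00854), and a mark at the start site does not report on the deletion itself. Of all listed peaks 1099 were higher in KLG4m/m (3.10% of all peaks) and 1960 were lower (5.52%) at an edgeR adjusted p under 0.05, a split that turned to 2122 higher and 1719 lower with upper-quartile scaling and to 33 higher (0.139% of the 23790 peaks it gave an adjusted p) and 244 lower (1.03%) with DESeq2.

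H3K4me3 marks the start sites of genes that are active or held ready, and is most marked where the start site is rich in CG dinucleotides. In the lipoxygenase route, 5-lipoxygenase (*Alox5*) with its activating protein FLAP (*Alox5ap*) makes leukotriene A4, which LTC4 synthase (*Ltc4s*) joins to glutathione. Between them, the different leukotrienes made from leukotriene A4 drive neutrophil recruitment and airway constriction. 12-lipoxygenase (*Alox12*) and 12/15-lipoxygenase (*Alox15*) oxygenate other positions, and 12/15-lipoxygenase can act on lipids still held in membranes. In the cyclooxygenase route, COX-1 (*Ptgs1*) and the inducible COX-2 (*Ptgs2*) make prostaglandin H2, which microsomal prostaglandin E synthase (*Ptges*) turns into prostaglandin E2. GPX4 reduces lipid hydroperoxides, the kind of product that lipoxygenases form. In healthy tissue *Alox5*, *Alox5ap* and *Ltc4s* are best known from myeloid and mast cells, *Alox12* and *Ptgs1* from platelets, and *Alox5*, *Alox5ap*, *Ltc4s* and *Ptgs1* also from tuft cells.

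Promoter sequences from RefSeq (GRCm38.p6, 250 bases before to 50 bases after the start) were found for 6 of the 8 genes, all but *Alox5ap* and *Alox15*. The peak coordinates in the deposited table are not GRCm38 positions, although the methods name a mouse Ensembl release for the mapping, as a comparison of the *Alox5* positions given here shows, so the sequences were matched by gene name only. Shown are the promoters of *Alox5*, whose start site held the only called peak, and of *Ptgs2*, with the strongest start-site peak. Also shown are those of *Ptges*, with no peak listed under its name, and *Ltc4s*, with no listed peak over its start site. Each runs 5′ to 3′ on the gene's strand with CG dinucleotides in capitals.
Alox5 (chr6:116461129-116461428, minus strand): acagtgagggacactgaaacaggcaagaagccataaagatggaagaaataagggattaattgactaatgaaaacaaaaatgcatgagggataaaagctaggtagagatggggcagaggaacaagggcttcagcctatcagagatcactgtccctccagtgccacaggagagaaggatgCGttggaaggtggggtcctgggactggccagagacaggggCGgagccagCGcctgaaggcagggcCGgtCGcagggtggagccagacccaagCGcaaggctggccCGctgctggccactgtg
Ptgs2 (chr1:150099781-150100080, plus strand): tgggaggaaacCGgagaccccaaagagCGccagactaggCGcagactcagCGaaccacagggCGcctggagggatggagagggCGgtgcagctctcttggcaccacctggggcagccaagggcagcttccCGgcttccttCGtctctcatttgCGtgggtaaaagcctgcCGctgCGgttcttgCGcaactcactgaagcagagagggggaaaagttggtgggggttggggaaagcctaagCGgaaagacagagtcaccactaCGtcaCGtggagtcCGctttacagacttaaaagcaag
Ptges (chr2:30903248-30903547, minus strand): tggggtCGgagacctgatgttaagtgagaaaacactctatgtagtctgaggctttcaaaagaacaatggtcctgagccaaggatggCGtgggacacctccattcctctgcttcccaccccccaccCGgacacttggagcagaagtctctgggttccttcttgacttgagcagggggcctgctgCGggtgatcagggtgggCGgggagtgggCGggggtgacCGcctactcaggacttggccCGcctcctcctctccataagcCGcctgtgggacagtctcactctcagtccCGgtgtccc
Ltc4s (chr11:50238483-50238782, minus strand): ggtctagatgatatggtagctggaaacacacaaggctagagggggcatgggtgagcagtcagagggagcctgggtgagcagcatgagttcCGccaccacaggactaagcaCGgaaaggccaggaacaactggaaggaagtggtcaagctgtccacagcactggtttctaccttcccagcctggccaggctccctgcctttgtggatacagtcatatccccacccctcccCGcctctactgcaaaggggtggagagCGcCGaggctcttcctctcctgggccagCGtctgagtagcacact

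The *Ptgs2* window held 16 CG dinucleotides, *Ptges* 10, *Alox12* 8, *Alox5* 7, *Ptgs1* 6 and *Ltc4s* 6, against a median of 7 over 32851 promoters. The *Ptges* window thus held more CG than those of *Alox5*, *Alox12* and *Ptgs1*, each of which had a start-site peak. No peak was listed under the name *Ptges*, and whether a peak of another gene lies over its start site was not examined. The SP1 motif GGGCGG, which itself contains a CG, occurred on either strand 3 times in *Alox12*, 2 times in *Ptges*, 1 time each in *Alox5* and *Ptgs2*, and not in *Ptgs1* or *Ltc4s*, and 35.7% of all promoters held it. The PU.1-type ETS motif GAGGAAGT was found 1 time, in *Ptgs1* (3.20% of all promoters). Neither the CRE motif TGACGTCA (1.79%) nor TATAAA (13.6%) occurred in any of the 6 windows, searched on both strands.

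Among the 13 peaks, 1 was higher in KLG4m/m and 0 were lower at an edgeR adjusted p under 0.05 over all 35486 peaks, beside the 3.10% and 5.52% called in the whole table. The called peak was the *Alox5* start site, 1 of the 7 member peaks within 1 kb of a start site (2.89% of all such peaks higher, 8.43% lower), and 0 of the 6 member peaks farther away were called (3.29% higher, 2.82% lower). At an unadjusted edgeR p under 0.05, 4 of the 13 were higher and 0 lower, beside 11.2% and 13.5% of all peaks. The log2 fold change was above 0 at 11 of 13 peaks (51.0% of all peaks), with a median of 0.32 over the members and 0.01 over all peaks. Both KLG4m/m libraries lay above both KL libraries at 8 of 13 peaks (27.5% of all peaks) and below them at 0 (26.6%). The peaks of 1 gene are not independent of each other, and 4 of these 8 belong to *Alox5ap*. The order was taken in CPM, and some of the 8 separated by very little. Raw reads overlapped at *Ptgs2* (132 and 96 in KL against 131 and 142) and at the first *Ptgs1* start (21 and 24 against 25 and 23). At *Alox5ap* 2.2 kb KL replicate 2 and KLG4m/m replicate 4 both held 89 reads.

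**Figure D1:**
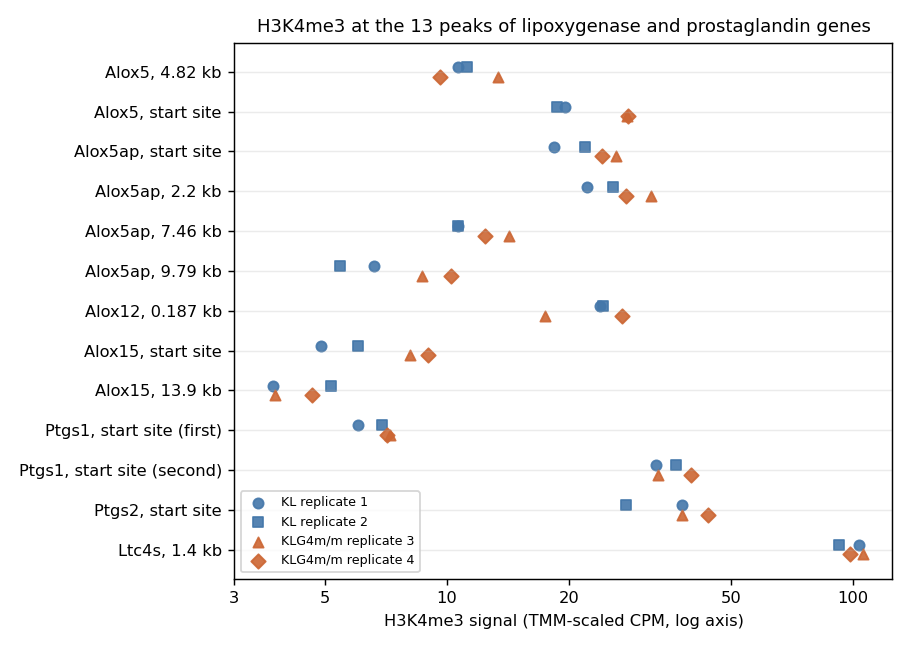
H3K4me3 at each of the 13 listed peaks in CPM on a log axis, with 1 point per library (blue, KL replicates 1 and 2; orange, KLG4m/m replicates 3 and 4) and the distance of the peak from the start site in the row name. The *Ltc4s* peak stands highest, at 92.2 to 106 CPM, and its groups overlap, while at the *Alox5* start site both KLG4m/m libraries, at 27.8 and 27.9 CPM, lie to the right of both KL libraries.

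*Alox5* (Entrez 11689), the enzyme that begins leukotriene synthesis, had 2 listed peaks on chromosome 6. The start-site peak (chr6:116437818-116438218) held 68 and 65 reads in KL against 96 and 90 in KLG4m/m. Both KLG4m/m libraries were higher, and the gap between the groups was wider than the spread within either. The level was 19.1 ± 0.594 CPM in KL and 27.9 ± 0.0180 CPM in KLG4m/m (SD, n = 2 each), a log2 fold change of 0.54 (SE 0.164, 95% interval 0.20 to 0.88; edgeR adjusted p = 0.0387). The second peak, 4.82 kb into the gene in intron 1, held 37 and 39 reads in KL against 46 and 31 in KLG4m/m. Here the KLG4m/m libraries fell on either side of the KL pair, with a log2 fold change of 0.07 (95% interval -0.41 to 0.56; edgeR adjusted p = 0.887). The test of whether 1 peak of a gene moved differently from its other peaks did not separate them (edgeR adjusted p = 0.877 for the start site and 0.749 for the intron), and it called 0 member peaks beside 1.29% of all peaks tested.

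The call at the *Alox5* start site depended on the test and on every library. DESeq2 gave the same log2 fold change, 0.54, with an adjusted p of 0.538. Leaving out KL replicate 1, KL replicate 2, KLG4m/m replicate 3 or KLG4m/m replicate 4 left the log2 fold change at 0.51 to 0.57, with edgeR adjusted p-values of 0.103, 0.177, 0.307 and 0.337. Without KLG4m/m replicate 3, and without replicate 4, 0 peaks passed in the whole table (2251 and 2228 were higher at an unadjusted p under 0.05), so the loss was not particular to *Alox5* in those fits. In sorted bulk cells, more cells of a type and more of the mark per cell cannot be told apart.

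*Alox5ap* (Entrez 11690), whose membrane protein FLAP hands arachidonic acid to 5-lipoxygenase, carried 4 listed peaks over 10.2 kb on chromosome 5, a number reached by 7.48% of genes with a peak. The start-site peak (chr5:149201773-149202173) held 64 and 76 reads in KL against 90 and 78 in KLG4m/m, and the peak 2.2 kb downstream held 77 and 89 in KL against 110 and 89 in KLG4m/m. The peak at 7.46 kb, over exon 2 of transcript NM_001308462.1, held 37 and 37 reads in KL against 49 and 40 in KLG4m/m, and the peak at 9.79 kb, in intron 2, held 23 and 19 in KL against 30 and 33 in KLG4m/m. In CPM both KLG4m/m libraries were above both KL libraries at each of the 4, although KL replicate 2 came close to KLG4m/m replicate 4 at the first pair. The log2 fold changes were 0.32, 0.32, 0.32 and 0.64 in that order, and edgeR adjusted p-values of 0.248, 0.216, 0.395 and 0.159 passed at none of them. The level was highest at 2.2 kb in both groups (23.9 ± 2.46 CPM in KL and 29.7 ± 3.07 in KLG4m/m) and lowest at 9.79 kb (6.04 ± 0.809 and 9.46 ± 1.07).

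Reads summed over the 4 *Alox5ap* peaks came to 201 and 221 in KL and to 279 and 240 in KLG4m/m. The summed level rose from 60.8 ± 4.01 to 77.6 ± 4.99 CPM (SD, n = 2 each), a log2 fold change of 0.35 (SE 0.104, 95% interval 0.15 to 0.56; edgeR adjusted p = 0.0111 over 20871 genes). It was the only member to pass at the level of the gene, 1 of 7 with a peak, beside 5.38% of all genes higher and 9.63% lower. DESeq2 gave a log2 fold change of 0.36 with an adjusted p of 0.266, and called 0 members (0.660% of the genes it gave an adjusted p were higher and 1.86% lower), and the start-site peak alone gave 0.33 with an edgeR adjusted p of 0.205. The edgeR adjusted p was 0.157 without KL replicate 1, 0.246 without KLG4m/m replicate 3 and 0.196 without KLG4m/m replicate 4, and 0.0300 without KL replicate 2 (log2 fold change 0.28 to 0.43 over the 4 fits). For *Alox5* the sum of both peaks was 105 and 104 reads in KL against 142 and 121 in KLG4m/m (log2 fold change 0.39, SE 0.145; edgeR adjusted p = 0.0562), short of the threshold with the intron peak included. Beside these 2 genes, the summed level of 8 leukocyte and macrophage marker genes also lay higher in KLG4m/m, at 399 and 403 CPM against 325 and 335 in KL, and its part in these results was not tested. Within that sum *Spi1* alone stood at a mean of 113 CPM in KL and 147 in KLG4m/m.

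**Figure D2:**
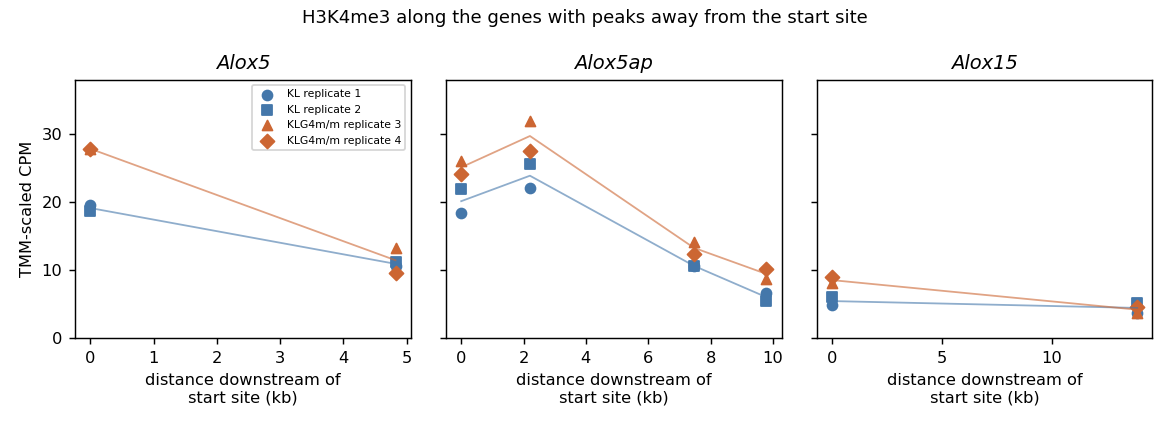
H3K4me3 in CPM against the distance downstream of the start site in kb for *Alox5*, *Alox5ap* and *Alox15*, with 1 point per library and lines through the group means (blue, KL; orange, KLG4m/m). At *Alox5ap* the orange line runs above the blue one at all 4 peaks, while at *Alox5* and *Alox15* the lines are apart at the start site and close at the peak inside the gene; no peak differed from the other peaks of its gene by the test.

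*Ltc4s* (Entrez 17001), which makes leukotriene C4, had the highest level of the members at its single peak (chr11:50127559-50127959). It held 360 and 320 reads in KL against 365 and 317 in KLG4m/m. The groups interleaved, with replicate 1 and replicate 3 high and replicates 2 and 4 low. The level was 97.9 ± 8.05 CPM in KL and 102 ± 5.45 in KLG4m/m (SD, n = 2 each), a log2 fold change of 0.06 (95% interval -0.12 to 0.24; edgeR adjusted p = 0.721). The peak ranked above 97.0% of all listed peaks. It did not lie over the start site of the gene but 1.40 kb downstream, 271 bp inside the 3′ end of a gene 2.07 kb long, and the nearest other listed peak, of *Mgat4b*, was 10.5 kb away.

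*Alox12* (Entrez 11684), known as the platelet-type 12-lipoxygenase, had 1 listed peak, 187 bp from its start site (chr11:70145609-70146009). The reads were 83 and 84 in KL against 60 and 87 in KLG4m/m. The KL pair was tight and the KLG4m/m libraries fell on either side of it, at 24.0 ± 0.225 CPM in KL and 22.2 ± 6.74 in KLG4m/m. The log2 fold change was -0.13 (95% interval -0.50 to 0.25; edgeR adjusted p = 0.722), and it was 0.16 without KLG4m/m replicate 3.

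*Alox15* (Entrez 11687), encoding 12/15-lipoxygenase, stood lowest of the members. Its start-site peak (chr11:70242566-70242966) held 17 and 21 reads in KL against 28 and 29 in KLG4m/m. Both KLG4m/m libraries were higher, at 8.55 ± 0.607 against 5.47 ± 0.819 CPM (SD, n = 2 each), with a log2 fold change of 0.64 (95% interval 0.03 to 1.25), an unadjusted edgeR p of 0.0401 and an adjusted p of 0.180. The peak 13.9 kb into the gene, in intron 1 of a longer transcript, held 13 and 18 reads in KL against 13 and 15 in KLG4m/m, and the groups overlapped (log2 fold change -0.09, 95% interval -0.87 to 0.70). At 13 reads the exact 95% Poisson interval of 1 library was 6.92 to 22.2 reads. The interval of the log2 fold change at this peak includes the 0.54 seen at the *Alox5* start site, so a change of that size is not excluded there.

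Between *Alox12* and *Alox15* on chromosome 11 lies *Alox12e*, a closely related lipoxygenase gene of the epidermal type. Its promoter peak, 211 bp from the start site (chr11:70212745-70213145), held 4 and 6 reads in KL against 37 and 14 in KLG4m/m. Both KLG4m/m libraries were above both KL libraries, but they were far apart, at 10.7 and 4.33 CPM. The log2 fold change was 2.38 (SE 0.490; edgeR adjusted p = 0.00296). Its second peak, at -7.15 kb from a start site of the gene, held 8 and 5 reads in KL against 15 and 15 in KLG4m/m (log2 fold change 1.25; edgeR adjusted p = 0.0969). Of the 9 listed peaks of other genes within 100 kb of the *Alox12* peak, this promoter peak was the only 1 called. These lipoxygenase genes are paralogs, and reads of low mapping quality had been removed; the effect of either on the value for *Alox12e* was not tested.

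On the prostaglandin side, *Ptgs2* (Entrez 19225), the inducible cyclooxygenase, had 1 listed peak over its start site (chr1:149975604-149976004), the strongest start-site peak of the members with *Ptgs1* just below. The reads were 132 and 96 in KL against 131 and 142 in KLG4m/m. KL replicate 2 was low, whereas KL replicate 1 was level with KLG4m/m replicate 3. The level was 32.8 ± 7.30 CPM in KL and 41.0 ± 4.23 in KLG4m/m (SD, n = 2 each), a log2 fold change of 0.32 (95% interval 0.01 to 0.62; edgeR unadjusted p = 0.0431, adjusted p = 0.187). The difference rested on KL replicate 2: without it the log2 fold change was 0.11, and without KL replicate 1 it was 0.56 (edgeR adjusted p = 0.0468).

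*Ptgs1* (Entrez 19224), the cyclooxygenase made in most tissues, had peaks over 2 start sites 13.8 kb apart on chromosome 2. The first, of the predicted transcript XM_006497790.5 (chr2:36106554-36106954), held 21 and 24 reads in KL against 25 and 23 in KLG4m/m. The second, of NM_008969.4 (chr2:36120379-36120779), held 114 and 127 reads in KL against 114 and 129 in KLG4m/m. The second start site thus carried most of the gene's reads in each library, at 34.7 ± 2.68 CPM in KL and 36.5 ± 4.87 in KLG4m/m, against 6.48 ± 0.616 and 7.19 ± 0.0911 at the first. Neither differed between the groups beyond the spread, with log2 fold changes of 0.15 (95% interval -0.46 to 0.75) and 0.07 (95% interval -0.22 to 0.36) and edgeR adjusted p-values of 0.799 and 0.805.

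*Ptges* (Entrez 64292), the inducible prostaglandin E synthase, had no peak listed under its name. The table lists only called regions, so the level of *Ptges* in each library is not given by it. Peaks listed under other gene names were not searched for the *Ptges* start site. Its next genes on either side by RefSeq order did have peaks, *Asb6* (1), *Prrx2* (1), *Tor1b* (2) and *Tor1a* (1). *Asb6* stood at 86.9 CPM, *Tor1b* at 82.4 and *Tor1a* at 62.6 with none of them called, and *Prrx2* at 6.11 CPM, lower in KLG4m/m (log2 fold change -1.52; edgeR adjusted p = 9.11e-04).

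**Figure D3:**
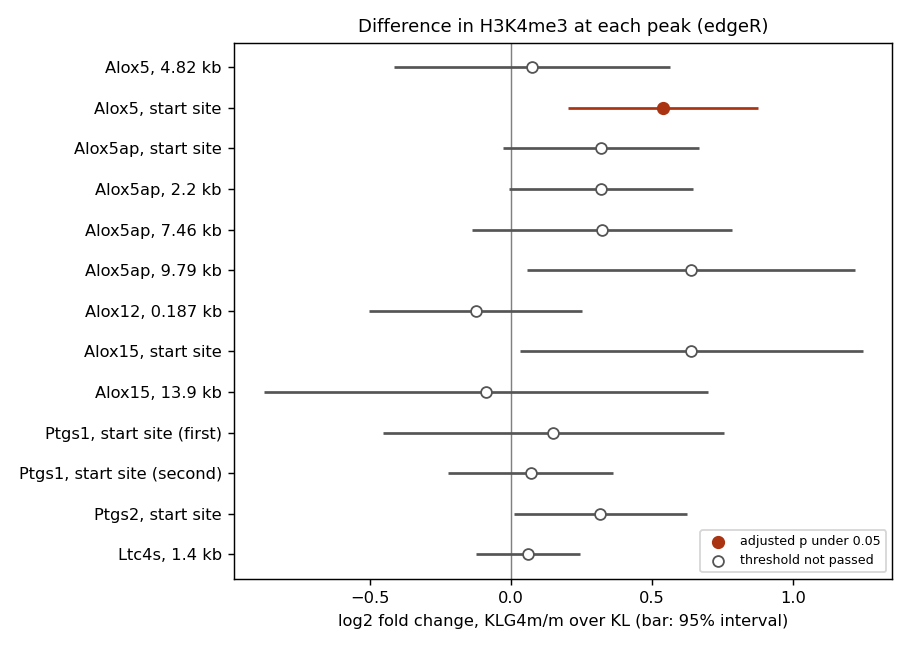
The log2 fold change in H3K4me3 (KLG4m/m over KL) at each of the 13 peaks from edgeR, with bars for the 95% interval and a filled red point for an adjusted p under 0.05. The *Alox5* start site, at 0.54, is the only filled point, and the intervals of *Ltc4s* and of the second *Ptgs1* start site are narrow and span 0.

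The order of the start-site levels, by the mean over all 4 libraries, was *Ptgs2* (36.9 CPM), *Ptgs1* second start (35.6), *Alox5* (23.5), *Alox12* (23.1), *Alox5ap* (22.6), *Alox15* (7.01) and *Ptgs1* first start (6.83). *Ptgs2* and *Ptgs1* overlapped each other over the libraries, as did *Alox5*, *Alox12* and *Alox5ap*, and *Alox15* and the first *Ptgs1* start. These are modest levels for peaks within 1 kb of a start site. Among the peaks within 1 kb of a start site, *Ptgs2* stood at percentile 46.2, *Ptgs1* at 45.1 and 10.9, *Alox5* at 34.0, *Alox12* at 33.6, *Alox5ap* at 33.2 and *Alox15* at 11.3. None of the 7 start-site peaks of the members thus reached the median of start-site peaks. Among all listed peaks the percentiles were 71.55 (*Ptgs2*), 70.86 and 29.63 (*Ptgs1*) and 62.46 (*Alox5*). The others were 62.14 (*Alox12*), 61.69 (*Alox5ap*) and 30.6 (*Alox15*), with 97.0 at the *Ltc4s* peak.

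Other genes of these routes were taken from 6 lists by role, 46 genes in all, of which 42 had a listed peak. The lists were chosen with earlier results of these data known, so the counts below are a description only. At the level of the gene 8 of the 42 were higher in KLG4m/m and 0 were lower, beside 5.38% and 9.63% of all genes. Of the 42, 28 had a log2 fold change above 0 (50.3% of all genes) and 12 were higher at an unadjusted p under 0.05 (12.4%), and the median was 0.09, against 0.00235 over all genes. Leaving out KL replicate 1 or KL replicate 2 left 6 and 3 higher, leaving out KLG4m/m replicate 3 or replicate 4 left 0 in a table with 0 genes called (9 and 6 of the 42 at an unadjusted p under 0.05), and DESeq2 called 3. *Alox12e*, *Ggt5* and *Ltb4r1* passed without either KL library and with DESeq2.

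Among the other lipoxygenases and their partners 3 of 6 passed. *Alox12e* rose with 12 and 11 reads in KL against 52 and 29 in KLG4m/m over both peaks (log2 fold change 1.86, SE 0.328; edgeR adjusted p = 8.26e-06). *Alox8*, the mouse 8-lipoxygenase, had 27 and 22 reads in KL against 41 and 44 in KLG4m/m (log2 fold change 0.85, SE 0.265; edgeR adjusted p = 0.0176, but 0.163 without KL replicate 2). *Cotl1*, whose product coactosin-like protein binds 5-lipoxygenase, rose by less on more reads, with 673 and 640 in KL against 791 and 709 in KLG4m/m (log2 fold change 0.25, SE 0.0633; edgeR adjusted p = 0.00292, but 0.0672 without KL replicate 2). The epidermal lipoxygenases *Alox12b* and *Aloxe3* and the 12/15-lipoxygenase partner *Pebp1* did not pass, at log2 fold changes of 0.42, -0.12 and 0.07.

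Of the leukotriene enzymes 1 of 6 with a peak passed. This was *Ggt5*, the gamma-glutamyl transferase that converts leukotriene C4 to D4, with 293 and 284 reads in KL against 390 and 355 in KLG4m/m (log2 fold change 0.42, SE 0.0887; edgeR adjusted p = 1.95e-04). With DESeq2 the adjusted p of the *Ggt5* sum was 0.0440. Its peak 129 bp from the start site did not pass (log2 fold change 0.31, edgeR adjusted p = 0.118). The peak at 2.19 kb did (log2 fold change 0.52, edgeR adjusted p = 0.00500). With peaks within 1 kb only, the gene did not pass (log2 fold change 0.32, edgeR adjusted p = 0.0843). *Lta4h*, the enzyme of leukotriene B4 synthesis, had no listed peak.

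Of the leukotriene and resolvin receptors 2 of 7 with a peak passed. *Ltb4r1*, the high-affinity leukotriene B4 receptor, had 178 and 157 reads in KL against 255 and 265 in KLG4m/m, with KLG4m/m well above KL in both libraries (log2 fold change 0.69, SE 0.110; edgeR adjusted p = 7.95e-07, DESeq2 adjusted p = 0.00396). Both of its peaks were higher, by 0.94 at the start site (50 and 47 reads against 84 and 95; edgeR adjusted p = 0.00181) and by 0.58 at 2.16 kb (128 and 110 against 171 and 170; edgeR adjusted p = 0.00586), while DESeq2 called neither peak (adjusted p = 0.102 and 0.210). *Gpr18*, a resolvin receptor, had 130 and 136 reads in KL against 162 and 171 in KLG4m/m (log2 fold change 0.38, SE 0.130; edgeR adjusted p = 0.0340, but 0.179 without KL replicate 1 and 0.109 without KL replicate 2). The low-affinity receptor *Ltb4r2*, with 212 and 229 reads in KL against 202 and 165 in KLG4m/m, had a log2 fold change of -0.21 and did not pass, and whether it differed from *Ltb4r1* was not tested. *Oxgr1* had no listed peak.

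Of the prostanoid synthases 0 of 7 with a peak passed, and no peak was listed under the symbols *Ptgds* and *Akr1b3*. *Ptges2* and *Ptges3*, the other prostaglandin E synthases, had peaks where *Ptges* had none, with 397 and 364 reads against 388 and 408 for *Ptges2* and 132 and 133 against 148 and 122 for *Ptges3*. Their log2 fold changes were 0.12 and 0.08. Of the prostanoid receptors 1 of 9 passed, the prostaglandin E2 receptor *Ptger2*, with 165 and 182 reads in KL against 199 and 221 in KLG4m/m (log2 fold change 0.33, SE 0.116; edgeR adjusted p = 0.0384, but 0.264 without KL replicate 1 and 0.0730 without KL replicate 2). Of the genes of prostaglandin breakdown and transport 1 of 7 passed, *Ptgr3*, a prostaglandin reductase, with 436 and 408 reads in KL against 491 and 466 in KLG4m/m (log2 fold change 0.24, SE 0.0769; edgeR adjusted p = 0.0237, but 0.226 without KL replicate 2). *Hpgd*, the main enzyme of prostaglandin E2 breakdown, had 65 and 68 reads in KL against 60 and 43 in KLG4m/m and did not pass (log2 fold change -0.31).

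**Figure D4:**
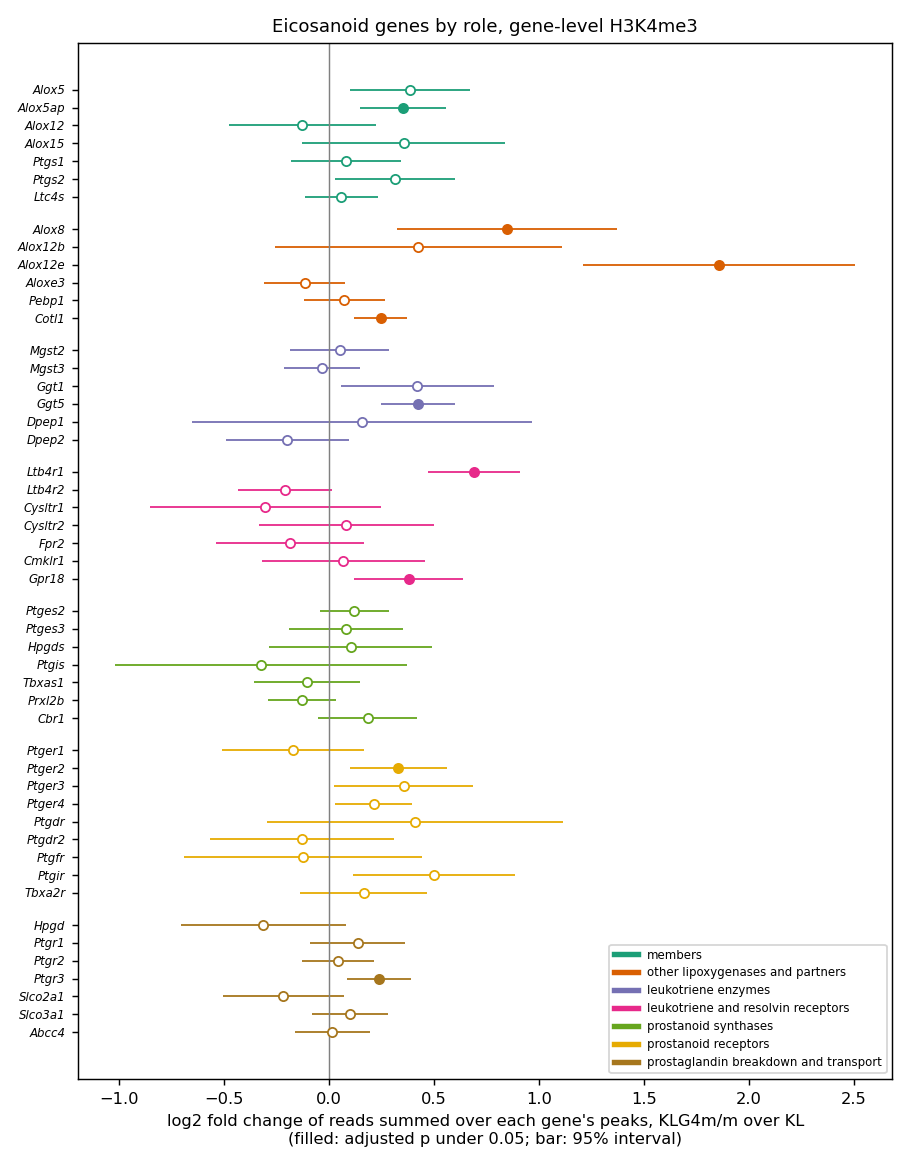
The log2 fold change of reads summed over each gene's peaks (KLG4m/m over KL) for the 7 members with a peak and 42 other genes, coloured by role, with bars for the 95% interval and filled points for an edgeR adjusted p under 0.05. Filled points occur on the right of 0 only (9 in all, *Alox5ap* among them), and the prostanoid synthases have none.

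Cell type markers were read in the same libraries because several members are genes of blood cells or tuft cells. The counts of genes called below stand beside 5.38% of all genes called higher and 9.63% called lower. Of the epithelial list all 8 genes had peaks, and *Epcam*, which was used for the sort, was lower in KLG4m/m (182 and 200 against 115 and 94 reads; log2 fold change -0.82, edgeR adjusted p = 1.56e-06), as was *Cdh1* (log2 fold change -0.38). The log2 fold change was above 0 for 4 of the 8 epithelial genes, and their median was -0.04. Of the 7 alveolar type 2 genes with a peak 4 were lower (*Sftpb*, *Sftpa1*, *Sftpd* and *Lamp3*), and *Sftpc* had no listed peak. In the leukocyte and macrophage list 2 of 8 genes with a peak were higher, *Spi1* and *Adgre1*, after a sort against CD45, and *Ptprc*, the gene of CD45, had 189 and 207 against 241 and 204 reads and did not pass (edgeR adjusted p = 0.163). *Mrc1* of the same list had 48 and 51 reads in KL against 42 and 34 in KLG4m/m (log2 fold change -0.33), and *Itgax* had 42 and 39 against 42 and 36. The other genes of that list with a peak had log2 fold changes above 0. *Spi1* alone stood at a mean of 113 CPM in KL and 147 in KLG4m/m. All 8 neutrophil genes had peaks, summing to 139 and 138 CPM in KL and 186 and 189 in KLG4m/m, with 3 called higher (*S100a8*, *S100a9* and *Cxcr2*).

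Markers of mast cells, eosinophils, platelets and tuft cells had fewer listed peaks. Of 10 mast cell and basophil genes 8 had no listed peak, *Cpa3*, *Fcer1a* and *Ms4a2* among them, and of the 2 with a peak *Kit* was higher (log2 fold change 0.51; edgeR adjusted p = 0.0145), with sums of 107 and 109 CPM in KL and 119 and 119 in KLG4m/m. Of 5 eosinophil genes 3 had no peak and *Il5ra*, 1 of the other 2, was higher, with sums of 33.2 and 33.1 CPM in KL and 47.7 and 44.7 in KLG4m/m. Of 8 platelet genes 4 had no peak, and *Itgb3*, 1 of the other 4, was higher, with sums of 126 and 124 CPM in KL and 135 and 129 in KLG4m/m. Of 10 tuft cell genes 5 had no peak, *Trpm5*, *Avil* and *Il25* among them, the summed levels were 84.8 and 89.0 CPM in KL and 90.4 and 95.6 in KLG4m/m, and *Gfi1b* was the 1 gene higher. Of 6 endothelial genes *Tek* was lower, and of 2 fibroblast genes with a peak 0 passed. The leukocyte, neutrophil, eosinophil, mast cell, platelet and tuft cell sums all lay higher in both KLG4m/m libraries, in the same direction as *Alox5*, *Alox5ap* and *Ltb4r1*, and their part in those results was not tested. *Ltc4s*, *Ptgs1* and *Alox12*, also known from such cells, had gene-level log2 fold changes of 0.06, 0.08 and -0.13, and none of them passed. Without KLG4m/m replicate 3 or replicate 4 no gene of any marker list passed. Without KL replicate 1 or KL replicate 2, 1 leukocyte gene passed in each fit, and 2 and 1 neutrophil genes, while the tuft and platelet calls were lost in both fits, the mast cell call without KL replicate 1 and the endothelial call without KL replicate 2. DESeq2 called 1 leukocyte gene (*Spi1*), 1 epithelial gene (*Epcam*) and 1 alveolar type 2 gene (*Sftpa1*), and 0 genes of the other lists named here. The median log2 fold change of the genes with a peak was -0.12 for the tuft cell list and -0.11 for the platelet list, opposite in sign to their sums.

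**Figure D5:**
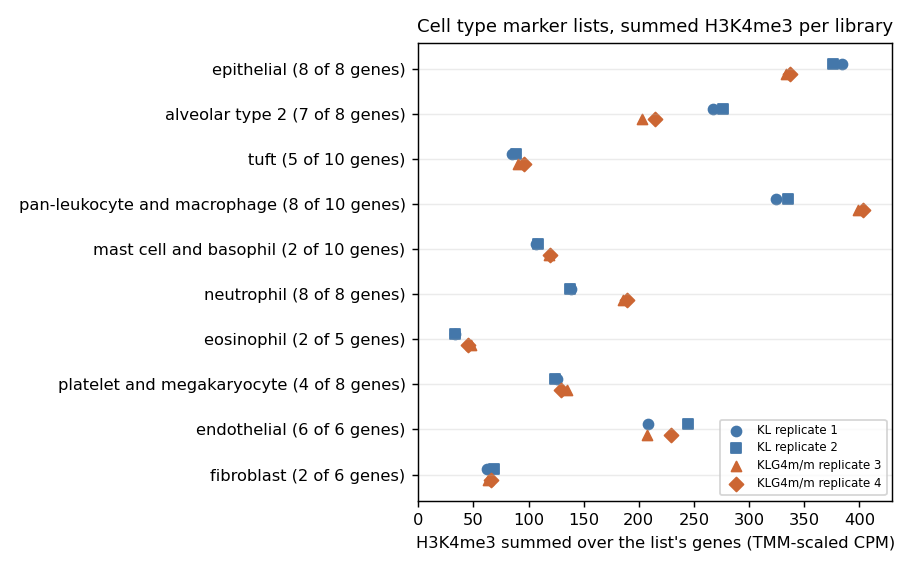
H3K4me3 summed over the genes of each of 10 cell type marker lists in CPM, with 1 point per library (blue, KL; orange, KLG4m/m) and the number of listed genes with a peak in the row name. The orange points lie to the right of the blue for the leukocyte and macrophage list (399 and 403 against 325 and 335 CPM) and, by less in CPM, for the neutrophil, eosinophil, mast cell, platelet and tuft cell lists, and to the left for the epithelial and alveolar type 2 lists. Within the epithelial list 4 of 8 genes had a log2 fold change above 0.

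Genes whose pattern over the 4 libraries was nearest to a member were found by the root mean square difference in centred log2 CPM, among genes of similar level. For *Ltc4s*, the member with the most reads, they were *Ddx10* (0.00410), *Cat* (0.00722) and *Synj2* (0.00854) of 8509 genes compared. For *Alox5*, with the largest change by summed reads, they were *Gm35596* (0.0157), *Galnt6* (0.0210) and *Gm10232* (0.0238) of 8403. The likeness rests on 4 libraries only.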

How the data were processed

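H3K4me3 CUT&Tag libraries, 2 of KL and 2 of KLG4m/m tumor cells, were used, and the H3K27ac libraries of the series were not analysed here. The submitters' processing notes name Trim Galore 0.6.10, BWA 0.7.15, Picard 2.17.3, MACS2 2.2.7.1 and HOMER 4.11.1, and the methods describe removal of mitochondrial, poorly mapped and duplicate reads. The authors deposited 1 peak table with whole-number counts of reads per peak and library, without normalization, which were used here. Another 4 columns of per-sample values (CPM) and the authors' own comparison (fold change, p-values) were not used. The methods name a mouse Ensembl release as the mapping reference, whereas the table's positions and contig names are not those of GRCm38, and no coordinate was converted between builds. Peaks were taken by the gene name in the table, so a gene listed there under another symbol counts here as having no listed peak.

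Counts were tested with edgeR 4.0.16 (TMM, quasi-likelihood test, 2-sided, no covariate, no filter; common dispersion 0.00133) in R 4.3.3, per peak and on reads summed per gene, with Benjamini-Hochberg adjustment over all 35486 peaks or 20871 genes and a threshold of 0.05, and peaks of 1 gene were compared with each other by diffSpliceDGE. DESeq2 1.42.0, limma 3.58.1, other scalings, a filter of 20 reads, promoter peaks only and leaving out each library were alternatives. An exact permutation test of 4 libraries has 3 splits and cannot pass 0.05, so none was run. Each library's total of 3244495 to 3463731 reads in peaks sets the precision, and Poisson intervals cover counting error only. Named were all members, and every pathway gene past the threshold. Members, gene lists and tests were chosen with earlier results of these data known. A scaling to reads in peaks cannot show a change by the same factor at every peak. An allele of the tumor model and a marker list are not reported here.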

Additional observations from a re-analysis of the deposited data

How the results depend on the processing

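At the *Alox5* start site the log2 fold change was 0.51 to 0.60 over 12 alternatives with adjusted p-values of 0.0152 to 0.538, of which 7 passed; for *Alox5ap* by summed reads it was 0.28 to 0.43 over 13 with 0.0106 to 0.266, of which 8 passed. *Alox5* by summed reads passed with start-site peaks only (0.55, adjusted p = 0.0203). With 1 library left out, signs turned only for values that were never called, over ranges of -0.19 to 0.29 at *Alox5* 4.82 kb, -0.46 to 0.16 at *Alox12* (by peak and by gene), -0.30 to 0.16 at *Alox15* 13.9 kb, with 0.05 without KLG4m/m replicate 3, -0.0668 to 0.20 at the second *Ptgs1* start, with -0.00662 without KL replicate 1, -0.0285 to 0.19 for *Ptgs1* by gene, -0.0207 to 0.15 at the *Ltc4s* peak and -0.0158 to 0.15 for *Ltc4s* by gene, with -0.00277 without KLG4m/m replicate 3.

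Over all listed peaks 1099 higher and 1960 lower peaks became 2122 and 1719 with upper-quartile scaling, 33 and 244 with DESeq2, and 0 to 702 and 0 to 1459 with 1 library left out; the cause was not tested. Member peaks called higher were 0 with DESeq2, and so were member genes. Where a member was called with 1 library left out, it was not always the member called with all libraries. *Ptgs2*, not called with all libraries, had a log2 fold change of 0.56 by peak and 0.57 by gene without KL replicate 1. Pathway genes called higher were 3 with DESeq2, 5 with peaks within 1 kb only (where 1, *Ptger1*, was lower) and 0 to 6 with 1 library left out. Peaks that differed from the other peaks of their gene were 287 in all and 35 to 119 with 1 library left out, 0 of them members' in each fit. No paired analysis was possible because the groups share no replicate number (1 and 2 against 3 and 4). The depth left peaks of few reads, such as those of *Alox15*, open to counting error.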
